A study of Mus musculus with 16 samples.

Results

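The miR-29 family of the mouse comprises 3 guide strands, miR-29a-3p, miR-29b-3p and miR-29c-3p, and the 4 strands cut from the opposite arm of their hairpins, miR-29a-5p, miR-29b-1-5p, miR-29b-2-5p and miR-29c-5p. These 7 members were taken by name from deposited miRNA tables that list 2274 names after merging of hairpin copies, 807 of which had enough reads to be tested, all 7 members among them. The small RNA libraries came from C2C12 cells, a mouse myoblast line that leaves the cell cycle and forms myotubes when serum is withdrawn. Of the 16 libraries, 4 were from control cells in growth medium (control GM), 4 from triple-knockout cells in growth medium (tKO GM), 4 from control cells after 3 days of differentiation (control DM3) and 4 from triple-knockout cells at the same time (tKO DM3). The tKO cells lack miR-206 and both miR-1a genes (miR-1a-1, miR-1a-2), while the controls are labelled wild-type. All groups share the same parental line, which the growth protocol calls PAX7 NEG. Growth medium held 20% FBS and cells were taken near confluence, and differentiation medium held 2% HS. Each group holds 2 lines with 2 biological replicates each, the lines being 2 populations for the control and 2 clones for the tKO, so clonal origin and the deletion cannot be told apart, and p-values measure only the spread between these libraries.

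MicroRNA hairpins are cut by RNases, and usually one arm, the guide, is kept in an Argonaute protein while the other, the passenger strand, is degraded. The guide finds messenger RNAs mainly through its seed, the bases from the second to the eighth. The miR-29 guides are known to repress collagens and other matrix genes as well as DNA methyltransferases, and in muscle they are known for roles in myoblast differentiation and in fibrosis.

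The mature sequences are shown with the seed in capitals, because the shared seed makes the guides one family and because their few differences decide how reads were assigned. The sequences are from RefSeq on GRCm38.p6, the same build as the mm10 named in the submitters' processing notes, and all 7 members matched.
miR-29a-3p: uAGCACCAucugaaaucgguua
miR-29b-3p: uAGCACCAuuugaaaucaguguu
miR-29c-3p: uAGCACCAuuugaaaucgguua
miR-29a-5p: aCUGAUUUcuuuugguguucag
miR-29b-1-5p: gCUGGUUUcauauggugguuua
miR-29b-2-5p: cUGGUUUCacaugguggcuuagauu
miR-29c-5p: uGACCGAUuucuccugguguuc

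The seed AGCACCA occurs in 3 of 1679 mouse mature sequences in RefSeq, the 3 guides. The 5p strands have 4 different seeds. The seed of miR-29b-2-5p is the seed of miR-29b-1-5p moved by 1 base. With positions counted from 1 at the 5′ end, miR-29a-3p and miR-29c-3p differ by the single substitution C10U. From miR-29b-3p to miR-29c-3p the substitutions are A18G, G21U and U22A. With the second base of miR-29b-1-5p set against the first base of miR-29b-2-5p, these strands share 9 bases in a row, and the substitutions that follow are U10C and U18C, numbered along miR-29b-2-5p.

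The hairpins lie in a pair of clusters. Mir29a at chr6:31062660-31062747 and Mir29b-1 at chr6:31063023-31063093 are both on the minus strand, with 275 bases between them, and the far end of Mir29b-1 touches an exon of the lincRNA Gm27019. Mir29b-2 at chr1:195037040-195037120 and Mir29c at chr1:195037547-195037634 are both on the plus strand, with 426 bases between them. They lie inside an exon of a retained-intron transcript of the noncoding gene A330023F24Rik and, on the opposite strand, overlap an exon of Cd46. Both clusters give the same miR-29b-3p sequence, so its reads do not tell the loci apart, whereas each 5p strand belongs to 1 hairpin.

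Levels are given as CPM, a member's reads per 1000000 listed miRNA reads of a library, scaled between libraries by TMM factors. In each list of 4 values, line 1 replicates 1 and 2 come first, then line 2 replicates 1 and 2. Library totals ran from 112792 to 6543570 reads, so that 3 reads, the level that a count of 0 allows, correspond to 0.559 to 20.1 CPM on this scale. The library of tKO DM3 line 1 replicate 1 stood apart, with the lowest total and with 38.2% of reads matching a hairpin exactly, against 51.5% to 76.4% in the others. Reads under 18 nt made up 1.88% to 6.50% of GM libraries and 2.96% to 18.9% of DM3 libraries. The deleted miRNAs matched the labels. In GM, miR-206-3p ranged from 883 to 1787 CPM in control and from 1.03 to 18.2 CPM in tKO libraries, and in DM3 these ranges were 14103 to 60645 CPM and 0.817 to 53.6 CPM. For miR-1a-3p, the other deleted miRNA, the DM3 means were 94.7 CPM for control and 2.77 CPM for tKO. Of the muscle markers that were not deleted, miR-133a-3p had a DM3 mean of 1389 ± 298 CPM for control and of 317 ± 283 CPM for tKO (SD, n = 4). Of 8 markers of blood, endothelial, liver, endocrine and nerve cells, miR-124-3p had no reads, and the summed level of all 8 was 30 to 90.8 CPM in GM and 6.41 to 30 CPM in DM3.

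The family's reads came almost wholly from a single member. The means and ranks in this paragraph are of CPM before scaling by TMM factors. Over the 16 libraries miR-29a-3p averaged 16152 CPM and ranked 15 of 2274 names. miR-29b-3p averaged 93.5 CPM at rank 252, and miR-29c-3p averaged 30.2 CPM at rank 387. The 5p strands ranked from 428 for miR-29c-5p to 568 for miR-29b-2-5p. Reads of different miRNAs also carry differences in ligation and amplification, so this order is one of reads. Within each library miR-29a-3p held 97.4% to 99.6% of the reads of the 3 guides.

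The abundant guide fell during differentiation of control cells. In control GM, miR-29a-3p was at 15826, 23624, 19888 and 24378 CPM. In control DM3 it was at 11212, 10631, 12199 and 12159 CPM. Every DM3 value lay below every GM value, and the 4 DM3 libraries were close to each other. In the edgeR quasi-likelihood fit of all 16 libraries the log2 fold change was -0.86 (SE 0.27, 95% interval -1.43 to -0.29), a 1.81-fold lower level with a Benjamini-Hochberg adjusted p of 0.0233 over 807 names. In bulk RNA, fewer cells of a type and less RNA per cell cannot be told apart.

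In tKO GM the same guide was at 16530, 21456, 18822 and 27090 CPM. In tKO DM3 it was at 7652, 10953, 16642 and 15874 CPM. The tKO groups touched, since the highest DM3 value exceeded the lowest GM value by a little, and line 1 was lower than line 2 in DM3. Their log2 fold change was -0.71 (SE 0.27, 95% interval -1.28 to -0.15) with an edgeR adjusted p of 0.0717, which missed the threshold of 0.05. DESeq2 called it with an adjusted p of 0.0192, as did edgeR with line and replicate as blocks (adjusted p 0.0129). The mean of miR-29a-3p was lower in DM3 in each line of each genotype. In control cells it went from 19720 to 10920 CPM in line 1 and from 22130 to 12180 CPM in line 2. In tKO cells it went from 18990 to 9302 CPM in line 1 and from 22960 to 16260 CPM in line 2. The call in control cells was not held by every way of counting: scaled by total reads without TMM the log2 fold change was -0.45 with an adjusted p of 0.205, and with reads that match a hairpin exactly it was -0.42 with an adjusted p of 0.161. It was also lost on leaving out any of 6 of the 8 libraries, as given with the other settings, with adjusted p from 0.0197 to 0.0777 over the 8.

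The guide shared by both clusters did not pass the test in either genotype. miR-29b-3p was at 51.5, 94.5, 102 and 126 CPM in control GM and at 71.3, 38.9, 57.0 and 53.4 CPM in control DM3. Line 1 replicate 1 was the lowest GM library and the highest DM3 library, so the groups overlapped. The fitted log2 change was -0.78 (SE 0.37) with an edgeR adjusted p of 0.119. In tKO cells it was at 146, 107, 96.0 and 121 CPM in GM and at 141, 127, 75.6 and 80.1 CPM in DM3. There the change was -0.17 with an edgeR adjusted p of 0.796, and the groups overlapped again. Both values moved with the settings, from -1.78 to -0.34 in control cells and from -1.06 to 0.15 in tKO cells. The lowest were with names as listed, without merging of hairpin copies, where the control change was called (adjusted p 0.0363) and the tKO change was not (0.214). The DM3 levels of line 1 replicate 1, 71.3 CPM for control and 141 CPM for tKO, were 20 and 26.8 CPM over reads that match a Mir29b hairpin exactly, and with the hairpin match the changes were -0.90 and -0.40, neither called.

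**Figure D1:**
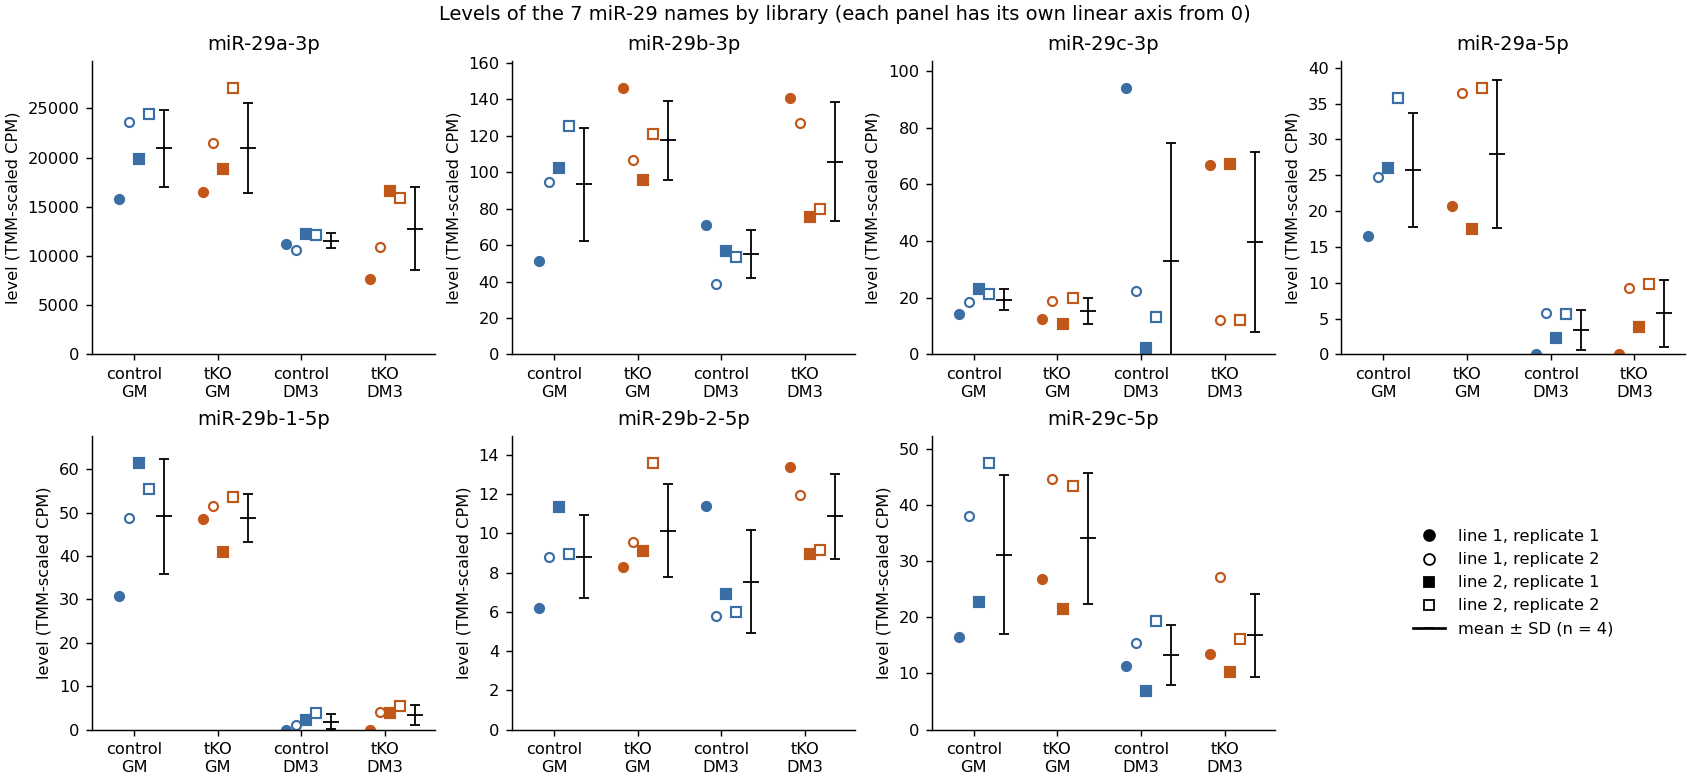
Level of each of the 7 members in each library (y axis, TMM-scaled CPM, linear from 0), by group on the x axis. Points are libraries, horizontal marks are the mean and bars the SD of 4 libraries, cut at 0 where the SD exceeds the mean. miR-29a-3p, miR-29a-5p and miR-29b-1-5p sit lower in DM3 than in GM, with control DM3 values of miR-29b-1-5p at or under 3.88 CPM against 30.9 CPM or more in control GM.

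The largest falls of the family were in the strands opposite the guides on chromosome 6. miR-29b-1-5p, cut from the chromosome 6 copy of miR-29b, was at 30.9, 48.8, 61.5 and 55.5 CPM in control GM. In control DM3 it was at 0, 0.964, 2.31 and 3.88 CPM, from 0, 1, 1 and 11 reads. The groups were far apart, and the count of 0 in line 1 replicate 1 allows a level of up to 8.55 CPM. Its log2 fold change was -4.36 (SE 0.52, 95% interval -5.44 to -3.27), with an edgeR adjusted p of 1.58e-05. Without control DM3 line 2 replicate 2, which held 11 of the 13 DM3 reads, it was -5.51 and still called. The value over all libraries was the second lowest log2 fold change of 807 names.

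In tKO cells miR-29b-1-5p was at 48.6, 51.6, 41.0 and 53.7 CPM in GM. In DM3 it was at 0, 4.08, 3.85 and 5.40 CPM, from 0, 15, 3 and 23 reads. The groups did not overlap, with every DM3 library below every GM library. Its log2 fold change was -3.49 (SE 0.47, 95% interval -4.48 to -2.51), with an edgeR adjusted p of 0.000107, the third lowest of 807 names. Without the shallow library of tKO DM3 line 1 replicate 1, whose count of 0 allows up to 20.1 CPM, it was -3.36 and still called.

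miR-29a-5p, the passenger strand of the other chromosome 6 hairpin, was at 16.5, 24.7, 26.05 and 35.8 CPM in control GM. In control DM3 it was at 0, 5.78, 2.31 and 5.65 CPM. All DM3 libraries were below all GM libraries. Its log2 fold change was -2.59 (SE 0.55) with an edgeR adjusted p of 0.00168, a 6.04-fold lower level. In tKO cells it was at 20.7, 36.5, 17.6 and 37.2 CPM in GM and at 0, 9.26, 3.85 and 9.87 CPM in DM3. Those groups did not overlap either. They differed by a log2 fold change of -1.91 (SE 0.51) with an edgeR adjusted p of 0.0124, a 3.76-fold lower level.

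The passenger strand of the chromosome 1 copy of miR-29b did not pass the test in either genotype. miR-29b-2-5p was at 6.18, 8.78, 11.4 and 8.94 CPM in control GM and at 11.4, 5.78, 6.94 and 5.999 CPM in control DM3. The ranges were nearly the same. The log2 fold change was -0.37 (SE 0.40, 95% interval -1.20 to 0.47) with an edgeR adjusted p of 0.536. In tKO cells it was at 8.27, 9.55, 9.10 and 13.6 CPM in GM and at 13.4, 11.98, 8.97 and 9.16 CPM in DM3. The log2 fold change was 0.03 (95% interval -0.75 to 0.80) with an edgeR adjusted p of 0.983, and the groups overlapped. Neither interval overlaps that of miR-29b-1-5p in the same genotype.

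miR-29c-5p, the other chromosome 1 strand, was at 16.5, 38.0, 22.7 and 47.5 CPM in control GM and at 11.4, 15.4, 6.94 and 19.4 CPM in control DM3. The highest DM3 library was above the lowest GM library. The fitted log2 change was -1.18 (SE 0.45) with an edgeR adjusted p of 0.0571. In tKO cells it was at 26.9, 44.6, 21.5 and 43.5 CPM in GM and at 13.4, 27.2, 10.25 and 16.2 CPM in DM3, and the groups overlapped. The log2 fold change was -0.95 (SE 0.44) with an edgeR adjusted p of 0.14. The mean of miR-29c-5p was lower in DM3 in each line of each genotype. In control cells it went from 27.2 to 13.4 CPM in line 1 and from 35.1 to 13.2 CPM in line 2. In tKO cells it went from 35.7 to 20.3 CPM in line 1 and from 32.5 to 13.2 CPM in line 2. Neither change passed the test, and in control cells the call was gained with DESeq2 (adjusted p 0.0432) and with a filter of 10 CPM (edgeR adjusted p 0.0486). It was also gained without control GM line 1 replicate 1 (log2 fold change -1.40) and without control DM3 line 2 replicate 2 (-1.51). With the replicate number as a block in the fit, with or without the line, the call was gained in each genotype. The lowest edgeR adjusted p was then 0.00784 in control and 0.021 in tKO cells, although these numbers were not taken as pairs.

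In all, 3 of the 7 members fell in control cells and 2 in tKO cells by edgeR, and none rose. By DESeq2, 4 fell in control cells, miR-29c-5p in addition, and 3 in tKO cells, miR-29a-3p in addition. Of all 807 names, edgeR called 27.6% in control cells and 11.8% as lower. In tKO cells it called 19.7% and 8.30% as lower. DESeq2 called 249 names in control cells, 112 of them lower, and 212 in tKO cells, 89 of them lower. The median log2 fold change of the members was -0.86 in control cells and -0.71 in tKO cells, against 0.02 and 0.01 over all names. In TMM-scaled CPM, the DM3 libraries lay wholly below the GM libraries for 3 members in control cells and 2 in tKO cells. So did those of 15.7% and 9.54% of all names. The summed markers of other cells were lower in DM3 as well, but the markers did not fall together. Means of the liver marker miR-122-5p went from 24.4 to 1.92 CPM in control and from 38.1 to 3.84 CPM in tKO cells. Those of the endothelial miR-126a-3p went from 24.1 to 8.26 CPM in control but from 8.29 to 10.25 CPM in tKO cells. In control cells the low means of miR-375-3p, miR-142a-3p and miR-223-3p were higher in DM3. The part of these markers in the members' changes was not tested. For orientation, of 18 miRNAs described as acting in or changing with myoblast differentiation, 17 were tested, 6 rose and none fell in control cells, and 5 rose and none fell in tKO cells. The muscle-specific miR-133a-3p rose by a log2 fold change of 6.99 in control cells (edgeR adjusted p 8.74e-06) and by 6.29 in tKO cells (edgeR adjusted p 3.18e-05).

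The contrast between the copies of miR-29b was measured directly as a share within each library, which does not depend on the scaling between libraries. Of the reads of both miR-29b 5p strands, miR-29b-1-5p held 83.3%, 84.8%, 84.4% and 86.1% in control GM and 0%, 14.3%, 25% and 39.3% in control DM3. In tKO cells it held 85.5%, 84.4%, 81.8% and 79.8% in GM and 0%, 25.4%, 30% and 37.1% in DM3. The GM libraries were within a few points of each other, and every DM3 library was far below them. The difference of the means was -65.0 percentage points in control cells and -59.7 in tKO cells. The two-sided exact permutation test gave 0.0286 for each, the smallest p that 4 against 4 libraries allow, and 0.19 after adjustment over 40 tests of 10 share measures. DM3 counts were small, with denominators of 4, 7, 4 and 28 reads in control DM3 and 2, 59, 10 and 62 in tKO DM3. Pooled over libraries, the share was 85.3% in control GM (644 of 755 reads, Wilson 95% interval 82.6% to 87.7%) and 30.2% in control DM3 (13 of 43 reads, 18.6% to 45.1%). In tKO cells the pooled share was 81.6% in GM and 30.8% in DM3 (41 of 133 reads, 23.6% to 39.1%). Reads without molecular identifiers are not independent molecules, so these intervals cover counting error only.

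The same share was computed over all 5p strands of the family by chromosome. The chromosome 6 strands held 67.7%, 61.1%, 72.0% and 61.8% of 5p reads in control GM and 0%, 24.1%, 25% and 27.3% in control DM3. In tKO cells they held 66.3%, 61.9%, 65.7% and 61.4% in GM and 0%, 25.4%, 28.6% and 37.6% in DM3. Neither genotype had any overlap between the media. This measure was added after the data were seen, as were 4 others below. The exact permutation test gave 0.0286 for each genotype and 0.0816 after adjustment over the 20 tests of the added measures.

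For miR-29a and miR-29b, the passenger strands were also a smaller share of the reads of their own hairpins in DM3. The 5p strand was 0.121% ± 0.0209 (SD, n = 4) of miR-29a reads in control GM and 0.0299% ± 0.0251 in control DM3, and 0.131% ± 0.0317 and 0.0424% ± 0.0380 in tKO GM and DM3. For miR-29b, both 5p strands together were 38.8% ± 3.74 in control GM and 14.5% ± 0.84 in control DM3, and 33.6% ± 3.84 and 12.5% ± 3.08 in tKO cells (SD, n = 4). The groups did not overlap in any of these 4 comparisons, and the exact permutation test gave 0.0286 for each, 0.19 adjusted. The miR-29b shares count listed miR-29b-3p reads, of which some matched only the Mir29a hairpin. Such reads were up to 16% of them in control GM, 1.35% in tKO GM, 36.5% in control DM3 and 61.9% in tKO DM3 libraries. They lower the listed 5p share. In control DM3 the 5p reads were 4, 7, 4 and 28, beside 7, 16.7, 12 and 114 listed miR-29b-3p reads that matched a Mir29b hairpin exactly. For miR-29c the 5p share was 53.3%, 67.2%, 49.5% and 69.1% in control GM and 10.8%, 40.7%, 75% and 59.6% in control DM3, and its means in tKO cells were 68.5% and 39.0%. Those groups overlapped, with exact permutation p of 0.429 and 0.114, and the sign changed in 2 of 5 settings in each genotype. Among 180 hairpins with both arms tested, the log2 fold change of the scarcer arm minus that of the other had a median of -0.17 in control cells and 0.01 in tKO cells. For miR-29a this difference was -1.74 in control cells, with 17 hairpins lower, and -1.20 in tKO cells, with 25 lower. For miR-29c it was -1.81 and -2.13, but these rest on the listed level of miR-29c-3p, described next, and no rank is drawn from them. With the hairpin match, which counts reads that match a hairpin exactly, the changes of miR-29c-5p and miR-29c-3p were -0.53 and -0.36 in control cells and -0.75 and 0.16 in tKO cells. The 5p strand was also not the scarcer one in GM, with 66.2% of pooled miR-29c reads in control cells and 68.9% in tKO cells.

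**Figure D2:**
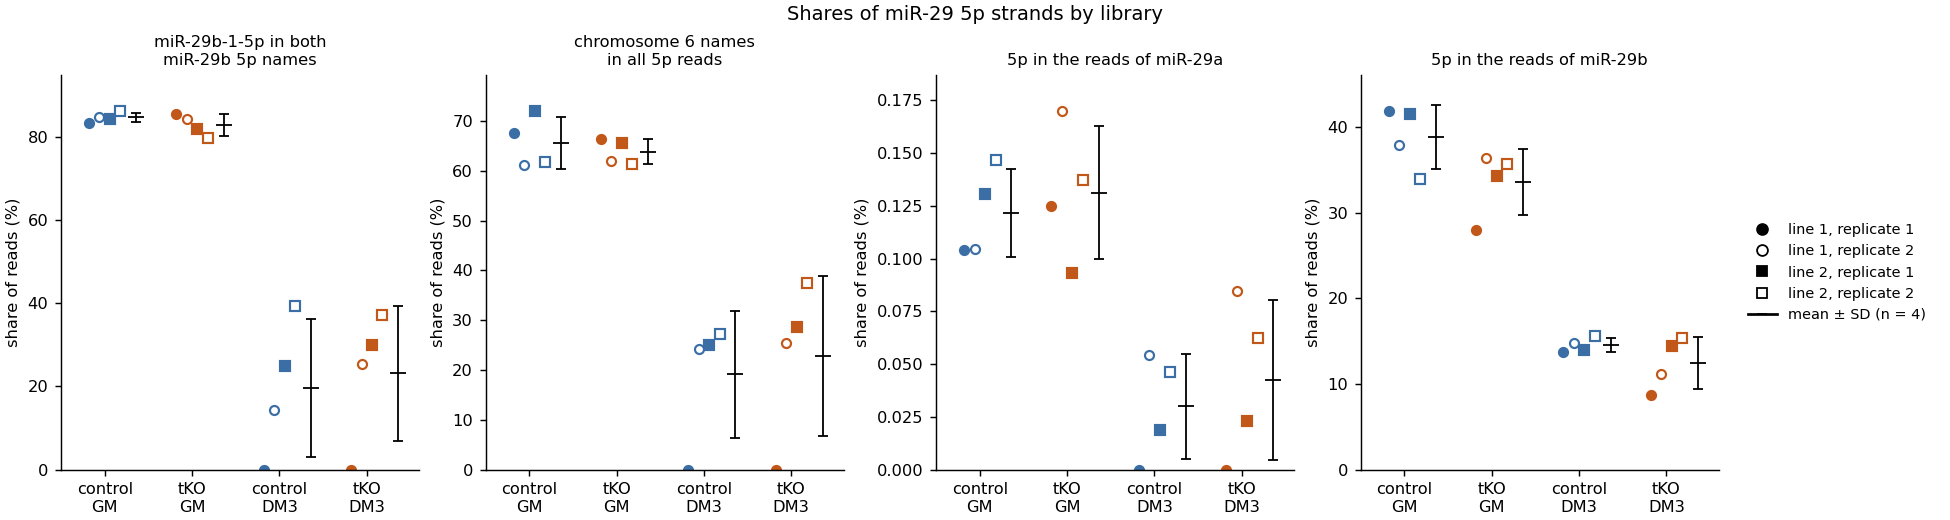
Shares of reads per library in percent (y axes) by group (x axes), with mean and SD of 4 libraries: miR-29b-1-5p among both miR-29b 5p strands, chromosome 6 strands among all 5p reads, and the 5p strand among reads of miR-29a and of miR-29b. In each panel the GM libraries lie above the DM3 libraries of the same genotype, for example 83.3% to 86.1% against 0% to 39.3% for miR-29b-1-5p in control cells.

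The levels listed for miR-29c-3p need the sequences to be read. Its control libraries were listed at 14.4, 18.5, 23.2 and 21.2 CPM in GM and at 94.1, 22.5, 2.31 and 13.2 CPM in DM3. In tKO cells they were 12.6, 18.8, 10.6 and 19.8 CPM in GM and 67.0, 12.3, 67.3 and 12.2 CPM in DM3. The GM libraries were close together, while the DM3 libraries of control cells spread from 1 read at 2.31 CPM to 94.1 CPM. The edgeR log2 fold changes were 0.63 (95% interval -0.88 to 2.14, adjusted p 0.551) and 1.18 (-0.34 to 2.69, adjusted p 0.278).

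Of the 678 reads listed as miR-29c-3p, 41.3% matched the Mir29a hairpin exactly and no other miR-29 hairpin. Another 27.9% matched Mir29c and were under 30 nt, 16.7% matched Mir29c and were 30 nt or longer, and 14.2% matched none. The Mir29a reads were 8.22% to 57.1% of the listed miR-29c-3p reads in GM libraries and 24.1% to 100% in DM3 libraries. In control DM3 line 1 replicate 1, the library with the highest listed level, they were 32 of 33 reads. In tKO DM3 line 2 replicate 1 they were 46 of 52.5 reads. In these libraries most of them were a single sequence, shown here with the base at position 10 of miR-29a-3p in capitals, the base that tells the guides apart.
extended miR-29a-3p: ctagcaccatCtgaaatcggttat
This sequence has the C of miR-29a-3p, 1 base before its start and 1 base after its end. It was listed under miR-29a-3p in 12 libraries and under miR-29c-3p in the other 4, with 23 reads in control DM3 line 1 replicate 1, 19 in control DM3 line 1 replicate 2, 7 in tKO DM3 line 1 replicate 1 and 45 in tKO DM3 line 2 replicate 1.

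Counted only over reads that match their own hairpin exactly, the change of miR-29c-3p was -0.36 in control cells and 0.16 in tKO cells. With reads of 18 to 25 nt and no mismatch it was -1.34 and -0.35. The sign in control cells turned under these settings and without control DM3 line 1 replicate 1 (-0.61), and no direction is given for this member.

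Reads with the miR-29c-3p sequence at position 10 were set beside reads of miR-29a-3p with a C read as U elsewhere. For 634732 reads of at least 20 nt that held the miR-29a-3p sequence exactly, there were 885 with C4U, 741 with C6U, 726 with C7U, 982 with C17U and 579 with C10U, the last being the miR-29c-3p sequence or a shorter form of it. As a percentage of the exact reads these were 0.139%, 0.117%, 0.114%, 0.155% and 0.0912%. In 10 of 16 libraries C10U was below the lowest of the other substitutions, and in 1 library it was above the highest. A level of mature miR-29c-3p above that of single-base differences in miR-29a-3p reads was not detectable here, although the 5p strand and loop reads of Mir29c were listed. The listing of miR-29b-3p was touched as well, since 215 of its 3626 listed reads matched the Mir29c hairpin only and 114 matched the Mir29a hairpin only. Those Mir29a reads were mostly in DM3, with 7 in control GM, 5 in tKO GM, 27 in control DM3 and 75 in tKO DM3. They were 0% to 36.5% of the reads listed as miR-29b-3p in control DM3 libraries and 0% to 61.9% in tKO DM3 libraries.

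**Figure D3:**
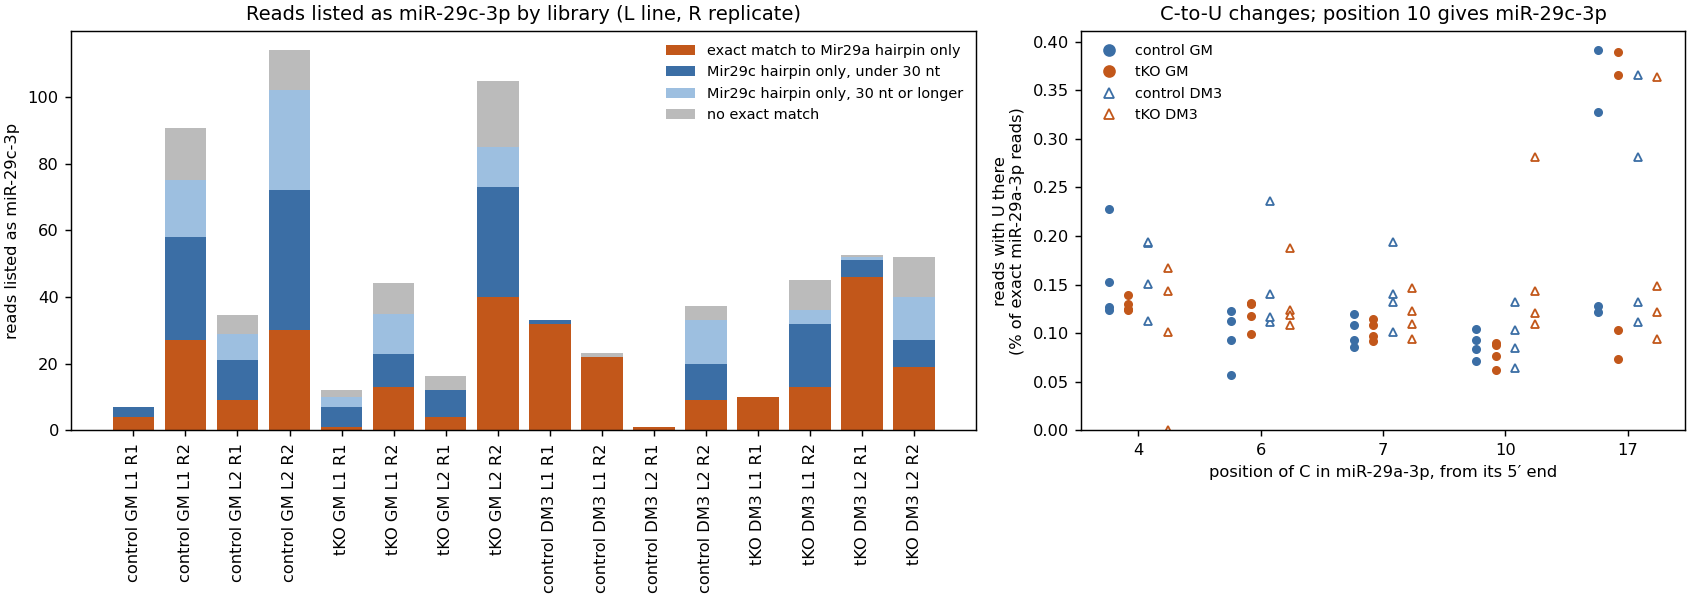
Reads listed as miR-29c-3p in each library, stacked by the hairpin that the sequence matches, and reads with a C-to-U difference at each C of miR-29a-3p as a percentage of exact reads (y axis) by position (x axis). Mir29a matches fill most of control DM3 line 1 replicate 1 and tKO DM3 line 2 replicate 1, and position 10, which gives the miR-29c-3p sequence, lies at 0.0912% over all libraries against 0.114% to 0.155% at the other positions.

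The ends of miR-29a-3p were resolved by the listed sequences, and the commonest are shown with their own seeds in capitals because a shifted start changes the seed. Shares are of all reads that matched the hairpin within a few bases of the mature start, over all libraries.
start -1, 32.4% of reads: cTAGCACCatctgaaatcggtt
start 0, 28.4% of reads: tAGCACCAtctgaaatcggtt
start 0, 20.4% of reads: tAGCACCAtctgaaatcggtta
The last is the annotated mature form, and the commonest form began 1 base earlier and ended 1 base earlier. Its seed UAGCACC belongs to 0 of 1679 annotated mouse mature sequences. Reads starting at -1 averaged 41.4% in control GM, 41.8% in tKO GM, 42.9% in control DM3 and 35.7% in tKO DM3, with libraries from 27.6% to 48.8%. The groups overlapped in every comparison of this measure, with exact permutation p from 0.2 to 0.943. The same early start was found in miR-29b-3p, where its share was 11% to 18.2% in control GM and 57.1%, 4.88%, 16.7% and 30.2% in control DM3. Those groups overlapped, with an exact permutation p of 0.371. In tKO cells it was 7.2% to 19% in GM and 50%, 21.4%, 32% and 27.0% in DM3, without overlap (exact permutation p 0.0286, adjusted 0.0816), with as few as 4 reads in a library.

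A smaller share of miR-29a-3p reads reached the annotated 3′ end in DM3. Reads ending at base 22, the annotated end, made up 22.9%, 24.3%, 27.4% and 25.9% in control GM and 19.3%, 13.5%, 14.8% and 15.2% in control DM3. In tKO cells they made up 26.4%, 23.2%, 27.2% and 24.3% in GM and 22.2%, 14.7%, 20.9% and 15.2% in DM3. No DM3 library reached the lowest GM library of its genotype. Reads ending at base 21 made up 56.1% to 62.2% of the GM libraries and 62.3% to 69.9% of the DM3 libraries. The single added U was also rarer, at 2.55% ± 0.23 in control GM, 1.88% ± 0.31 in control DM3, 2.49% ± 0.49 in tKO GM and 1.41% ± 0.18 in tKO DM3 (SD, n = 4). The exact permutation test gave 0.0286 for the end and for the U tail in each genotype, 0.0816 adjusted over the 20 added tests. The share of reads with any non-templated base in the deposited tail columns averaged 14.4% to 16.5% over the groups, and the exact tests of this measure did not reach 0.05. DM3 libraries also held more reads under 18 nt, as given above, and the part of this in the end shift was not tested.

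**Figure D4:**
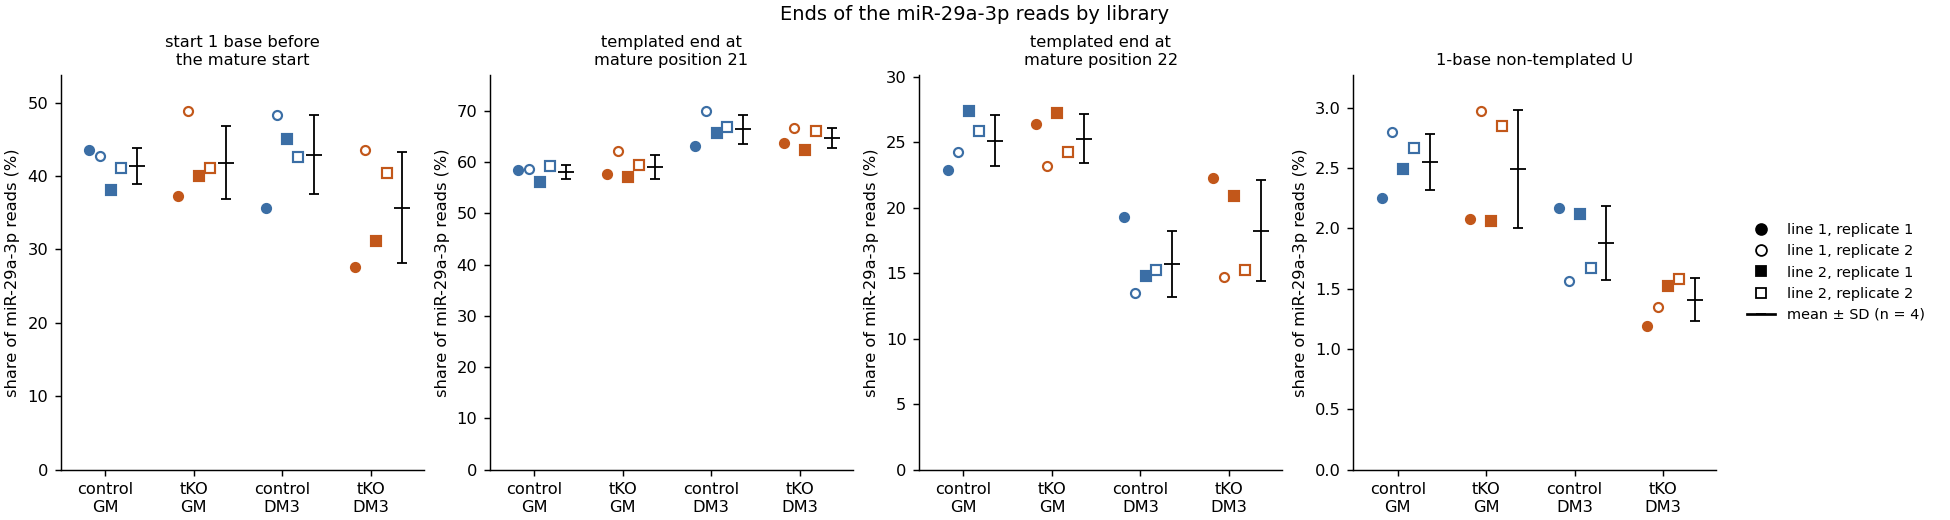
Share of miR-29a-3p reads per library in percent (y axes) by group (x axes), with mean and SD of 4 libraries: reads starting 1 base early, ending at base 21, ending at base 22, and carrying a single added U. Reads ending at base 22 are at 22.9% to 27.4% in GM and 13.5% to 22.2% in DM3, while the early start overlaps between all groups.

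Longer reads spanned the hairpin loop, and reads of 30 nt or more were 16.0% of those listed as miR-29a-5p, 4.53% of miR-29b-1-5p, 5.91% of miR-29c-5p and 19.6% of miR-29c-3p. Reads holding the 5p arm and the loop numbered 110 for Mir29a, 52 for Mir29b-1 and 59 for Mir29c. Those of Mir29a numbered 47 in control GM, 53 in tKO GM, 2 in control DM3 and 8 in tKO DM3. In the same order there were 24, 25, 1 and 2 for Mir29b-1 and 31, 13, 10 and 5 for Mir29c. These are raw counts, not scaled for library totals, which differed between the groups. Most ended just before the mature 3p start: 67 of the 110 for Mir29a, 39 of 52 for Mir29b-1 and 46 of 59 for Mir29c. A further 35 for Mir29a ended 1 base earlier, where the 3p form with the early start begins. Reads holding the loop and the 3p arm were 109 for Mir29c and 31 for Mir29a.

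Deletion of miR-206 and the miR-1a genes was compared in each medium. In GM the members' log2 fold changes, tKO against control, ran from -0.34 to 0.32 with edgeR adjusted p from 0.955 to 0.994. None of the 7 was called, against 1.12% of all names, none had an unadjusted p under 0.05, DESeq2 called none, and the groups overlapped for all 7, while they did not for 8.92% of all names. The GM means of miR-29a-3p were 20929 ± 3928 CPM for control and 20975 ± 4547 CPM for tKO (SD, n = 4). Its log2 fold change had a 95% interval of -0.56 to 0.57.

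In DM3 the log2 fold changes ran from 0.15 to 0.93, and none was called by edgeR (adjusted p 0.363 to 0.932) or by DESeq2, against 0.867% of all names called. Their median was 0.58, against 0.09 over all names. Leaving out control DM3 line 2 replicate 2 moved miR-29b-1-5p from 0.84 to 2.02, still not called. The sign was not stable for 3 of the members. Without tKO DM3 line 2 replicate 1, miR-29a-3p turned from 0.15 to -0.02 and miR-29c-3p from 0.21 to -0.45. With sums per line or with replicate 2 alone miR-29c-3p was at -0.61. Without control DM3 line 1 replicate 1 it moved the other way, to 1.42. miR-29c-5p turned from 0.33 to -0.14 with the hairpin match. miR-29b-3p ranged from 38.9 to 71.3 CPM for control and from 75.6 to 141 CPM for tKO, and was the only member whose groups did not overlap, while 1.98% of all names lay wholly higher in tKO. Its log2 fold change was 0.93 (SE 0.37, 95% interval 0.15 to 1.71) with an unadjusted p of 0.0217 and an edgeR adjusted p of 0.363. It stayed between 0.79 and 1.13 with each library left out. In tKO DM3 line 1 replicate 1 the level of 141 CPM came from 21 reads, of which 13 matched the Mir29a hairpin only and 4 a Mir29b hairpin. Over only the reads that match a Mir29b hairpin exactly, the levels were 20, 16.1, 27.7 and 40.1 CPM in the control libraries and 26.8, 94.8, 32 and 64.4 CPM in the tKO libraries, and the groups overlapped. The log2 fold change with all names counted by exact hairpin match was 1.00 (SE 0.39, edgeR adjusted p 0.177). Of the 5 muscle markers that were not deleted, miR-133a-3p (log2 fold change -2.13, edgeR adjusted p 0.098) and miR-133b-3p (-2.29, 0.0709) were lower in every tKO DM3 library than in the control DM3 libraries. Their genes lie beside those of the deleted miRNAs, miR-133a with miR-1a and miR-133b with miR-206. The groups overlapped for miR-486a-5p (-0.27) and for miR-499-5p (1.30), and miR-208b-3p had 0 to 3 reads in a DM3 library and was not tested. None of the 4 tested was called, and their part in the members' values was not tested. The abundant miR-29a-3p averaged 11550 ± 764 CPM for control and 12780 ± 4247 CPM for tKO in that medium (SD, n = 4).

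The difference between the differentiation effects of the genotypes was tested as an interaction. For the members it ran from 0.14 for miR-29a-3p to 0.86 for miR-29b-1-5p, with edgeR adjusted p from 0.937 to 0.972. With 1 library left out, miR-29b-1-5p reached 2.06 and miR-29c-3p ran from -0.12 to 1.80, and neither was called. No name among 807 was called (0.00%), by edgeR or by DESeq2, while 37 names had an unadjusted p under 0.05 in edgeR and 39 in DESeq2, and none of the members was among the 37. The difference between genotypes in the change of miR-29a-3p had an interval of -0.66 to 0.94.

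Across the 16 libraries the chromosome 6 strands followed each other. Pearson's r of log2 levels was 0.94 between miR-29a-5p and miR-29b-1-5p, 0.86 between miR-29a-3p and miR-29a-5p and 0.89 between miR-29a-3p and miR-29b-1-5p. The chromosome 1 strand miR-29c-5p also had r = 0.81 with miR-29a-5p, 0.75 with miR-29b-1-5p and 0.69 with miR-29a-3p, but 0.26 with miR-29b-2-5p of its own cluster, so the likeness did not follow the chromosome throughout. Between miR-29b-1-5p and miR-29b-2-5p it was 0.03. miR-29b-3p, made from both clusters, had r = 0.77 with miR-29b-2-5p and 0.40 with miR-29b-1-5p. Outside the family, the 3 of 240 names with the most similar pattern to miR-29a-3p were miR-361-5p (r = 0.92), miR-125b-5p (0.90) and miR-145a-5p (0.89). For miR-29b-3p they were miR-872-3p (0.66), miR-224-5p (0.64) and miR-872-5p (0.64), and for miR-29c-3p no name exceeded 0.48. These correlations are descriptions over 16 libraries that share 4 groups, 4 lines and a wide range of depth.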

How the data were processed

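Small RNA reads of 16 C2C12 libraries were deposited as unitas miRNA tables per the file headers and names, each listing sequences with a miRNA name and an expected count of reads, without normalization. In the deposited tables a read that fits several names enters each as a fraction, and non-templated 3′ bases have columns of their own. The submitters' processing notes name cutadapt 1.15, STAR 2.5.4 and mm10. Their roles and the unitas version are not given in the sources used here.

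Expected counts were summed per name, 236 of 2510 listed names being merged into the mature name they copy, and rounded. All 16 libraries entered an edgeR 4.0.16 quasi-likelihood fit (R 4.3.3) with a coefficient per group, TMM factors and filterByExpr (smallest count 10). Calls are Benjamini-Hochberg adjusted p under 0.05 over 807 names. The common dispersion had a square root of 0.477. Correlations used log2(CPM + 1). Shares were compared by two-sided exact permutation tests (scipy 1.17.1) over 70 assignments. Scripts were tested on simulated data.

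Alternatives were DESeq2 1.42.0 (test and size factors), total-count scaling, other filters, replicate and line blocks, sums per line, fewer groups, each replicate number alone, reads without mismatch or of 18 to 25 nt, names as listed and each library left out. Exact matches of at least 16 nt to a RefSeq hairpin (the hairpin match) and 5 share measures were added after the data were seen. All 7 members are named, with miR-206-3p and miR-1a-3p, the 3 names most like each guide by Pearson's r among names averaging at least 100 CPM, and up to 6 values of a list of 18 myogenic miRNAs, to which those of miR-486a-5p and miR-499-5p were added after they were seen. The members and lists were chosen with earlier results of these data known.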

Additional observations from a re-analysis of the deposited data

Results flagged for a closer look

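In 8 of 88 groups of 4 libraries, 1 library stood apart from the other 3 by Dixon's criterion at 95%, which chance does in about 1 of 20 groups. The miR-29a-3p share of guide reads was lowest in tKO GM line 1 replicate 1, at 99.05% against 99.42% to 99.48%, and in control DM3 line 1 replicate 1, at 98.55% against 99.43% to 99.52%. The miR-29b-3p share of guide reads was highest in that same tKO GM library, at 0.877% against 0.4445% to 0.507%. The tailed share of miR-29a-3p was lowest in control DM3 line 1 replicate 2, at 12.81% against 14.82% to 15.11%. The tailed share of miR-29b-3p was highest in tKO DM3 line 2 replicate 1, at 35.59% of 59 reads against 23.81% to 24.93%. The tailed share of miR-29c-3p was lowest in control GM line 1 replicate 1, at 0 of 7 reads against 32.72% to 38.46%, and highest in control DM3 line 2 replicate 2, at 56.25% against 0 to 3.03%. The chromosome 6 share of 5p reads was lowest in control DM3 line 1 replicate 1, at 0 of 8 reads against 24.14% to 27.27%.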

How the results depend on the processing

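Over up to 15 settings a member, miR-29b-1-5p and miR-29a-5p kept the direction of their fall. Both stayed called in control cells under all settings and left-out libraries; in tKO cells miR-29b-1-5p did too, and miR-29a-5p lost its call with replicate 1 alone (adjusted p 0.0769). miR-29a-3p in control cells stayed negative, at -1.12 to -0.42, and was called in 8 of 15 settings; besides those in the report, it was lost with 18 to 25 nt reads (-0.51, 0.0715), no filter (0.0935), sums per line (0.142), replicate 1 alone (0.289) and replicate 2 alone (0.155). It was called with 2 of 8 libraries left out, and was lost without control GM line 1 replicate 2 (0.0777), line 2 replicate 1 (0.0704) and line 2 replicate 2 (0.0623), and without control DM3 line 1 replicate 1 (0.0513), line 1 replicate 2 (0.0754) and line 2 replicate 1 (0.0539). miR-29a-3p in tKO cells gained a call with DESeq2 (0.0192), and miR-29b-3p in control cells with names as listed (0.0363). Of 30 member values that were not called, 17 changed sign somewhere, and none of the 5 called did. No genotype or interaction value of a member was called under any alternative.

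The replicate numbers were not taken as pairs: deviations from the group means correlated by 0.101 on average over 48 pairs of libraries with the same number (-0.460 to 0.637) and by -0.095 with different numbers. With the replicate block miR-29c-5p was called in control (adjusted p 0.00857) and tKO cells (0.0276). With the line and replicate block 4 members were called in tKO cells in place of 2, miR-29a-3p among them (0.0129). Of all 807 names, 193 were then called in tKO cells in place of 159. With permutation within replicates, as a replicate block, or over means of a line, 0 of the 10 planned share measures reached 0.05 in place of 3 in each genotype, since the smallest possible p is then 0.0556 or 0.333. Leaving out any library gave 0 for the same reason (0.0571).

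Over all names, the genotype count in GM, 9, was 15 without a filter, 5 with the 10 CPM filter, 20 with DESeq2, 2 with replicate 1 alone, 18 without mismatches, 15 with 18 to 25 nt reads and 21 with the hairpin match. In DM3 it was 7, and 14, 19 (DESeq2), 4 (only the groups compared), 74 (sums per line), 1 and 70 (replicate 1 or 2 alone), 13, 20 and 11 (hairpin match). The count for differentiation was 223 in control cells, and 85 with replicate 1 alone, 136 with 18 to 25 nt reads and 97 with the hairpin match; in tKO cells it was 159, and 82 with only the groups compared, 74 with replicate 2 alone and 92 with the hairpin match. There 1 member was called with replicate 1 alone. The interaction had 1 name with sums per line. With a library left out, counts ran from 5 to 14 and 5 to 53 (the latter without tKO DM3 line 1 replicate 1) for genotype in GM and DM3, 157 to 250 and 109 to 153 for differentiation, and 0 to 1 for the interaction. Members called ran from 2 to 4 in control cells, stayed at 2 in tKO cells, and stayed at 0 otherwise. Scaling by total counts moved the median of all names to 0.39 and 0.24, and 71.2% and 71.7% of calls were then higher, against 57.4% and 57.9%. The causes of these shifts were not tested. In DM3 the 5p strands had few reads (0 to 23 for miR-29b-1-5p), which limits their shares.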
